A study of Mus musculus with 16 samples.

Results

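The unfolded protein and Atf4 stress response is the set of genes by which a cell answers crowding of unfolded protein in the endoplasmic reticulum (ER) and shortage of amino acids. The list held 33 gene symbols, chosen by name and with earlier results of these data known. Of these, 32 were found in each of the 3 expression tables, which hold 38926, 21603 and 38926 genes. No gene of any table carried the symbol Vldlr2. The members were read in a pair of arms. The Xbp1 and Atf6 arm has 23 members, namely the sensors Ern1, Atf6 and Atf6b, the transcription factor Xbp1, and 19 folding, degradation and translocation genes. The Atf4 arm has 9 members, namely the kinase Eif2ak3, the transcription factors Atf4 and Ddit3, and 6 genes of amino acid supply and feedback.

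RNA-seq was carried out on endothelial cells (ECs) sorted from long bones of 3-week-old C57BL/6 mice, in 16 libraries of 6 groups. In the first comparison, 3 libraries held ECs of the metaphysis (mpECs) and 3 held ECs of the diaphysis and its marrow (bmECs), sorted from wild-type mice by the red and green signals of a Cdh5 reporter. In the second, 3 control and 3 ECKO libraries came from bone at postnatal day 21. Both of these groups carry loxP sites in both copies of Yap1 and Wwtr1, the gene that encodes Taz, and the ECKO mice alone carry Cdh5-CreERT2, a Cre recombinase that the Cdh5 promoter drives in ECs and that tamoxifen activates. In the third, 2 control and 2 cKO libraries came from mice with loxP sites in both copies of Lats2, and again Cdh5-CreERT2 was present in the cKO mice alone. Yap1/Taz mutants studied at this age were given tamoxifen around the end of the first week after birth, and for the Lats2 mutants the methods give these days or the first days after birth. For bone ECs in general the methods give a sort with CD31 and Emcn antibodies. The methods call the replicates biological, and neither they nor the labels say which animals went into each library, so p-values measure the spread between libraries. Controls of the mutants were littermates without Cre. The Y-linked gene Ddx3y was at 0 FPKM in all mpEC and bmEC libraries, in which Xist was at 4.43, 6.72 and 6.81 and 4.48, 4.29 and 4.38. The methods name C57BL/6J males for wild-type bone, and say in general that animals were grouped regardless of sex. In the Yap1/Taz libraries Ddx3y was at 16.7, 11.4 and 17.7 in control and 15.6, 13.5 and 12.3 in ECKO. In the Lats2 libraries it was at 0 and 22.8 in control and 0 and 17.2 in cKO, so replicate number went with the sex of the mice there, and sex and other differences between replicates cannot be told apart.

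The ER has 3 stress sensors. Ern1 (IRE1) is a nuclease that splices the Xbp1 mRNA, and the spliced form encodes a transcription factor that drives chaperones, degradation genes and the protein import machinery. Atf6 and Atf6b are membrane-bound factors that are cut free in the Golgi and act on many of the same promoters. Eif2ak3 (PERK) phosphorylates the initiation factor eIF2, which slows translation in general but raises translation of Atf4, and Atf4 then drives amino acid synthesis, transport and feedback genes. Gene-level values give the amount of mRNA and show neither Xbp1 splicing nor Atf4 translation. Xbp1 is also a defining factor of plasma cells, a cell type of the marrow.

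Levels are in FPKM as deposited, a unit that divides the fragments of a gene by its length and by the size of the library. Reads on genes were recovered from the values with annotated gene lengths, and numbered 14730838, 11419593 and 11163374 in mpECs and 11292503, 12930855 and 14807175 in bmECs. The Yap1/Taz libraries held 5041860, 7162965 and 6463009 reads in control and 4889945, 6473001 and 6233360 in ECKO, and the Lats2 libraries 5862565 and 7082795 in control and 4740136 and 6704061 in cKO. Genes whose mean over the libraries of a comparison reached 1 FPKM were tested with limma on log2(FPKM + 1), and a gene was called at a Benjamini-Hochberg adjusted p under 0.05 over all tested genes. The added 1 makes log2 fold changes of weakly expressed genes smaller. The tables were normalized separately, so no test crosses them. The endothelial genes Pecam1, Cdh5 and Emcn were present in every library, with Cdh5 at 149, 203 and 189 FPKM in mpECs, 165, 160.1 and 182 in bmECs, 105, 111 and 101 and 113, 130.5 and 143 in Yap1/Taz control and ECKO, and 229 and 267 and 276 and 277 in Lats2 control and cKO.

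Promoter sequences of the members were searched for letters known to bind the factors of each arm. The RefSeq promoter table (GRCm38.p6) covers 250 bases before to 50 after each annotated start and matched 20 of the 23 members of the Xbp1 and Atf6 arm and 9 of 9 of the Atf4 arm. Atf6, Derl1 and Manf had no entry. Letters of 4 known elements were searched on both strands of all 32851 windows. A gene can have several windows, and a member was counted if any of its windows matched. The shares of all windows count single windows instead, so they are not like for like with the counts of members. The ER stress response element ERSE, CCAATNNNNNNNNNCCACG, was held by 0.119% of all windows and by 6 of the 20 Xbp1 and Atf6 arm members, namely Calr, Canx, Pdia6, Creld2, Syvn1 and Derl3, and by 0 of 9 Atf4 arm members. ERSE-II, ATTGGNCCACG, was held by 0.0365% of all windows and by 1 member, Herpud1. The Xbp1 element UPRE, TGACGTGG, was held by 0.676% of windows and by no member. The Atf4 element CARE, TGATGNAA, was held by 3.97% of windows, by 3 of 9 Atf4 arm members (Asns, Chac1 and Trib3) and by 1 of 20 members of the other arm, Herpud1. A match describes letters in the window and is not evidence of binding. The elements searched are known ones of this response, and the list names genes known for it. Matches in members and in the chaperones named below could thus be foreseen, and the shares do not test the list. Stretches of 80 bases around matches upstream of the start are shown for members of both arms described below, 5′ to 3′ on the strand of the gene, with the matched letters in capitals. Where the capitals begin with CGTGG or TTGCATCA, the element lies on the other strand.
Calr ERSE, chr8:84847045-84847124, minus strand: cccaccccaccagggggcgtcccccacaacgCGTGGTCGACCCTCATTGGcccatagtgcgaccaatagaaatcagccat
Canx ERSE, chr11:50325770-50325849, minus strand: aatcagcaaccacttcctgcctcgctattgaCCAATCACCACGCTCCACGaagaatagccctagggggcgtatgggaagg
Pdia6 ERSE, chr12:17266460-17266539, plus strand: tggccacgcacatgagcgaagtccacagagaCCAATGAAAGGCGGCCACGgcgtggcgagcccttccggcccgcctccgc
Creld2 ERSE, chr15:88819489-88819568, plus strand: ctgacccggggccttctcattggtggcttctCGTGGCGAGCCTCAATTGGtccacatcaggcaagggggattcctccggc
Syvn1 ERSE, chr19:6046496-6046575, plus strand: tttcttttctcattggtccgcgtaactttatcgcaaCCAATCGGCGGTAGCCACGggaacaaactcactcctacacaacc
Herpud1 ERSE-II, chr8:94386342-94386421, plus strand: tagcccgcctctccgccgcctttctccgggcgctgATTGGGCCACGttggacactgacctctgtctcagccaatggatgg
Herpud1 CARE, chr8:94386281-94386360, plus strand: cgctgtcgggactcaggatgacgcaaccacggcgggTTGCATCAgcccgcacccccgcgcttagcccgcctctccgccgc
Asns CARE, chr6:7693210-7693289, minus strand: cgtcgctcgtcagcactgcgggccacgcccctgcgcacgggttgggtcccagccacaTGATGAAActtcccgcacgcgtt
Chac1 CARE, chr2:119351013-119351092, plus strand: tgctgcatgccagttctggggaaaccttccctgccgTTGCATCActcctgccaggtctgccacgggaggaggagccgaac

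**Figure D1:**
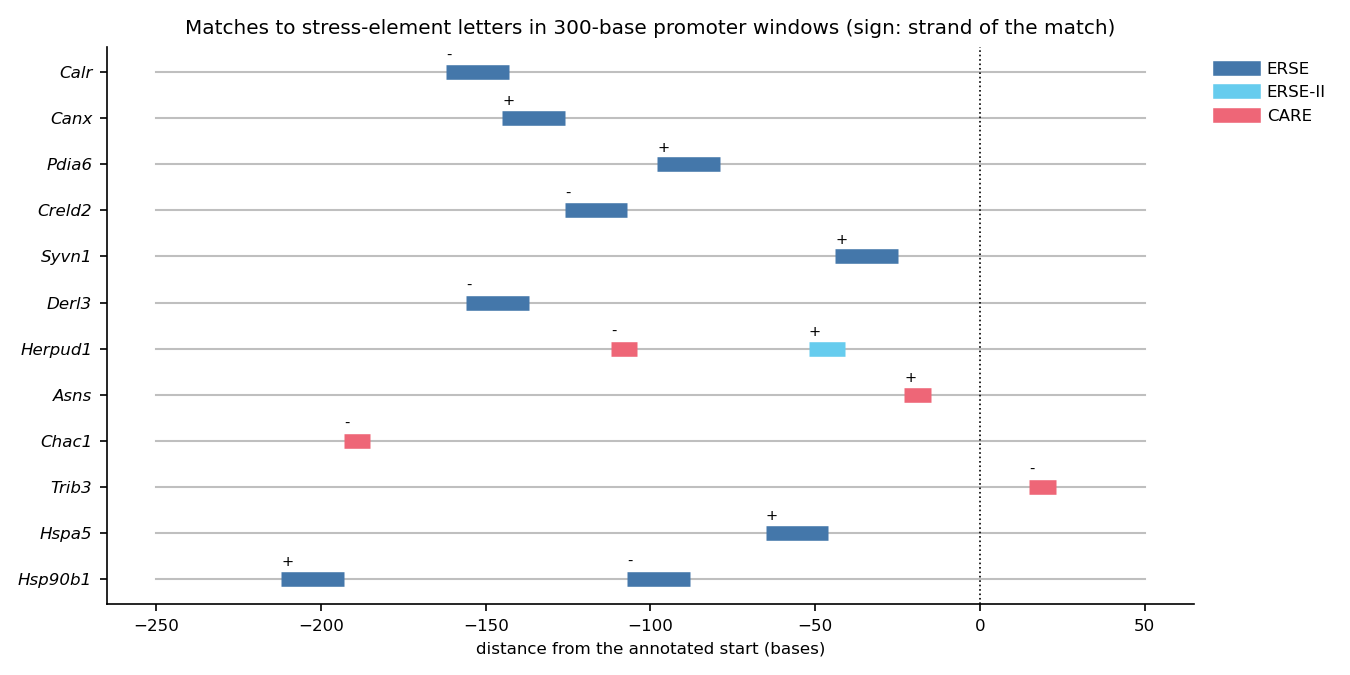
Matches to ERSE, ERSE-II and CARE letters in the promoter windows of 10 members and of the chaperones Hspa5 and Hsp90b1, by distance from the annotated start in bases, with the strand of each match as a sign. ERSE matches lie between -162 and -44 (first base) in the members plotted, and the Trib3 match lies 15 bases after the start.

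The main chaperones, which are not on the list, hold the same letters. Hspa5, which encodes the ER chaperone BiP, has an ERSE match that begins at -65, and Hsp90b1 has a pair of them. Herpud1, a component of the degradation complex, is the one member with letters of both arms, -52 for ERSE-II and -112 for CARE. It was also 1 of the 2 members called in more than 1 comparison.

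The first comparison asks how the ECs of the marrow cavity differ from those of the metaphysis. Xbp1 was the member with the clearest difference. Its level was 301, 338 and 306 FPKM in mpEC replicates 1 to 3 and 819, 773 and 715 FPKM in bmEC replicates 1 to 3. All 3 bmEC libraries lay above all mpEC libraries, and the mean was 2.44 times that of mpECs (log2 fold change 1.29 ± 0.091 SE, adjusted p = 7.88e-05, limma, n = 3 per group). Xbp1 was the most abundant of the 32 members in each bmEC library, while Pdia3 lay above it in each mpEC library. Of the 21 members of the Xbp1 and Atf6 arm that passed the level filter, 6 were called higher in bmECs and 0 lower, where 13.0% of all 11422 tested genes were called higher, 10.5% lower and 23.5% in either direction. The 6 are 28.6% of those tested. Members of this arm are abundant, with a median of 62.8 FPKM beside 7.13 over all tested genes. With a minimum mean of 5 FPKM, 1255 of 6839 tested genes were called higher and 824 lower. At an unadjusted p under 0.05, 1 member of the arm was lower, Edem1 (adjusted p = 0.0677, limma), and limma voom on recovered reads called it. Of the 8 tested members of the Atf4 arm, 1 was called higher and 0 lower, with 1 lower at an unadjusted p under 0.05 (Psat1) and 0 lower by voom. In these sorted bulk samples, fewer cells of a type and less RNA per cell cannot be told apart.

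Among the folding enzymes, Pdia4, a disulfide isomerase, was at 60.2, 68.0 and 55.4 FPKM in mpECs and 94.5, 79.9 and 89.9 in bmECs, with no overlap (log2 fold change 0.52 ± 0.10 SE, adjusted p = 0.00903, by limma). Pdia6, a second isomerase, was at 149.6, 154 and 146 FPKM in mpECs and 200.3, 193 and 180.0 in bmECs (log2 fold change 0.35, adjusted p = 0.0141, limma). The lectin chaperones that hold glycoproteins during folding were both called. Calr was at 165, 184 and 157 FPKM in mpECs and 223, 218 and 192 in bmECs (log2 fold change 0.32, adjusted p = 0.0446, limma). Canx was at 297, 269.7 and 244 FPKM in mpECs and 399.8, 427 and 303 in bmECs (log2 fold change 0.46, adjusted p = 0.0482, limma), and its lowest bmEC library lay just above its highest mpEC library. Calr, Canx and Pdia6 are 3 of the 6 called members, and each holds an ERSE match in the sequences shown above. The Creld2 and Syvn1 promoters hold one too, and these genes were not called: Creld2 was at 51.6, 49.7 and 54.4 FPKM in mpECs and 50.2, 43.6 and 50.3 in bmECs.

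The other isomerases did not pass. Pdia3, the isomerase that works with both lectins, was at 519, 523 and 479 FPKM in mpECs and 577, 570.3 and 467 in bmECs, groups that overlap. P4hb was at 277, 281 and 268 and 311, 306 and 292 FPKM, higher in every bmEC library by a margin that missed the threshold (adjusted p = 0.226, limma). The cochaperone Sdf2l1 and the secreted stress factor Manf overlapped between the groups, with fold changes of 0.096 and -0.049 on the log2 scale.

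In the degradation branch, which returns misfolded protein to the cytosol, the channel protein Derl1 was the called member. It was at 35.8, 37.4 and 35.6 FPKM in mpECs and 43.7, 48.4 and 46.3 in bmECs, with no overlap (log2 fold change 0.34 ± 0.077 SE, adjusted p = 0.0159, limma). Sel1l, the scaffold of the ubiquitin ligase Syvn1, was at 13.1, 14.8 and 13.3 and 15.9, 16.7 and 18.0 FPKM and missed the threshold (adjusted p = 0.0628, limma), while every bmEC library was above every mpEC library and voom called it higher (adjusted p = 0.0437, with 0.0437 to 0.174 over all alternatives). Edem1, which marks glycoproteins for removal, lay the other way, at 4.06, 3.49 and 4.03 FPKM in mpECs and 2.72, 3.16 and 2.57 in bmECs (adjusted p = 0.0677, limma). Herpud1, Syvn1, Edem2 and Derl2 overlapped between the groups. At the import channel, Sec61b and the translocon protein Ssr1 had fold changes of -0.12 and 0.33 on the log2 scale (adjusted p = 0.449 and 0.0704, limma).

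The sensors were low. Ern1, the nuclease upstream of Xbp1, was at 0.535, 0.699 and 0.517 FPKM in mpECs and 1.10, 1.13 and 1.22 in bmECs, from 54, 57 and 41 and 74, 87 and 117 recovered reads. Its mean was under the level filter, so it is outside the count above, and with no filter limma called it higher, with a log2 fold change of 0.44. All 3 bmEC libraries lay above all mpEC libraries. Atf6 was at 3.71, 4.22 and 3.86 FPKM in mpECs and 4.15, 4.13 and 3.74 in bmECs, and Atf6b and Eif2ak3 also overlapped between groups. Derl3 rested on 9, 7 and 9 reads in mpECs and 6, 3 and 12 in bmECs, and a difference was not detectable at this depth.

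In the Atf4 arm, Atf4 itself was at 36.7, 41.7 and 49.0 FPKM in mpECs and 37.6, 34.8 and 46.0 in bmECs, and Ddit3 (CHOP), the death-linked factor downstream of it, was at 9.26, 8.66 and 10.2 and 8.30, 9.81 and 7.49 FPKM. Both overlapped between the groups. The called member was Trib3, a pseudokinase that feeds back on Atf4, with 2.13, 3.40 and 3.00 FPKM in mpECs and 5.20, 5.27 and 5.48 in all bmEC libraries (log2 fold change 0.73 ± 0.14 SE, adjusted p = 0.00832, limma). Every bmEC library lay above every mpEC library. Chac1, an enzyme that degrades glutathione, went the opposite way, at 0.890, 1.10 and 1.20 FPKM in mpECs and 0.297, 0.0646 and 0.104 in bmECs. These values rest on 18, 18 and 19 reads against 4, 1 and 2, and the gene was under the level filter, while with no filter limma called it lower, with a log2 fold change of -0.84. Trib3 and Chac1 both hold a CARE match. Of the amino acid enzymes, Asns (asparagine) was at 38.5, 27.0 and 27.9 and 35.8, 37.3 and 36.3 FPKM, and Psat1 and Phgdh (serine) had log2 fold changes of -0.38 and -0.11. Sesn2, a leucine sensor, was at 1.12, 1.96 and 2.34 and 1.92, 1.92 and 2.93 FPKM.

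As whole lists, the median log2 fold change was 0.096 over the 21 tested members of the Xbp1 and Atf6 arm and -0.049 over the 8 of the Atf4 arm, beside -0.00068 over all tested genes. The summed level of the Xbp1 and Atf6 arm was 2308, 2292 and 2141 FPKM in mpECs and 3196, 3097 and 2758 in bmECs, and that of the Atf4 arm 116, 105 and 113 and 111, 106 and 118. The groups did not overlap in the sum of the Xbp1 and Atf6 arm and overlapped in that of the Atf4 arm. Without Xbp1 the first arm summed to 2008, 1954 and 1835 FPKM in mpECs and 2377, 2324 and 2043 in bmECs, where bmEC replicate 3 lay just above mpEC replicate 1. All genes summed to 465725, 411232 and 427471 FPKM in mpECs and 507673, 495231 and 445777 in bmECs. The sums of the arms were not divided by these totals, which were larger on average in bmECs. The median of the Atf4 arm was 0.041 without mpEC replicate 3. That of the Xbp1 and Atf6 arm was 0.051 without mpEC replicate 3, 0.16 without bmEC replicate 3 and 0.21 with a minimum mean of 5 FPKM.

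Other genes of the pathway were read from lists by function. Of 17 tested folding genes 3 were called higher, of 14 degradation genes 4, of 24 translocation genes 1 and of 15 regulators 1 (limma). None of these lists held a gene called lower by limma or by voom, and at an unadjusted p under 0.05 they held 1, 0, 0 and 0 lower genes in that order. Of 29 tested Atf4 target genes 3 were called higher and 3 lower. Dnajb9, a cochaperone that is a known Xbp1 target, was at 53.0, 52.0 and 51.1 FPKM in mpECs and 95.6, 99.5 and 77.5 in bmECs (adjusted p = 0.00140, limma). Ube2j1, the ubiquitin enzyme of the ER membrane whose promoter holds a UPRE match, was at 30.7, 30.3 and 29.7 and 53.4, 52.4 and 48.3 FPKM (adjusted p = 4.14e-04, limma). Sil1, Ube2g2, Vimp (Selenos), Tmbim6 and Cebpg were called higher as well, with log2 fold changes of 0.52, 0.51, 0.45, 0.46 and 0.51, and the folate enzyme Mthfd2 was called lower, at -0.53. Ube2g2 shares 10.3% of its exon bases with other genes on the same strand. The main chaperones were not called: Hspa5 was at 526, 487 and 470.1 and 633, 578 and 554 FPKM and Hsp90b1 at 216, 199 and 188 and 201, 199 and 169. Ppp1r15a, which reverses eIF2 phosphorylation, and Atf3 overlapped between the groups.

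Marker genes of other cells were summed beside these results. The plasma and B cell list, of which 12 genes were in the table, summed to 1042, 695 and 547 FPKM in mpECs and 629, 589 and 571 in bmECs, with Igkc at 434, 326 and 229 and 272, 307 and 245, and limma called 0 of 10 tested genes, with 0 higher and 1 lower at an unadjusted p under 0.05 and 0 higher and 1 lower by voom. The plasma cell gene Mzb1 was at 53.2, 36.7 and 32.2 FPKM in mpECs and 31.3, 23.6 and 19.4 in bmECs, and Tnfrsf17 was listed at 0 in all mpEC libraries and in bmEC replicates 2 and 3. The osteoblast list of 9 genes, headed by Bglap at 322, 185 and 49.2 FPKM in mpECs and 2.95, 2.91 and 0.962 in bmECs, summed to 976, 462 and 247 and 49.4, 60.9 and 45.5, with 5 of 7 tested genes called lower. The neutrophil list summed to 27965, 11716 and 18069.8 and 13972, 9481 and 9992 FPKM, with 0 of 9 genes called by limma, 0 higher and 4 lower at an unadjusted p under 0.05 and 0 by voom, and the macrophage list of 6 genes to 171, 156 and 131 and 418, 404 and 343, with Mrc1, which sinusoidal ECs also express, at 97.1, 114 and 85.1 and 351, 341 and 300.1 and called higher. Without Mrc1 the macrophage sums were 73.8, 41.6 and 45.5 and 66.6, 62.5 and 42.5, and the groups overlapped. The endothelial list had 3 of 10 genes called higher (Kdr, Tek and Erg) and 3 lower (Pecam1, Emcn and Tie1). The early response genes (8 genes, headed by Fos, 3 called higher) summed to 796, 807 and 1139.7 in mpECs and 2639.9, 3073 and 983 in bmECs, so bmEC replicates 1 and 2 stood apart from replicate 3. The stroma list, headed by Cxcl12, summed to 31.3, 27.8 and 35.8 and 28.4, 48.0 and 38.6 FPKM, with 1 of 3 called higher and 0 lower by limma, 1 higher and 1 lower at an unadjusted p under 0.05 and 1 and 0 by voom, and its Lepr was the called gene, at 2.74, 2.90 and 3.20 and 11.6, 14.8 and 13.5. The erythroid list, headed by Hbb-bs, summed to 52878, 28251 and 33496 and 60395, 55991 and 42478, with 0 of 7 called by limma, 1 higher and 0 lower at an unadjusted p under 0.05 and 1 and 0 by voom. The megakaryocyte list, headed by Pf4, summed to 324, 76.9 and 127 and 467, 79.0 and 208, with 0 of 4 called by limma, 0 higher and 0 lower at an unadjusted p under 0.05 and 0 and 0 by voom. The part of these genes in the results on members was not tested.

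Xbp1, Pdia4 and Trib3 were called whichever library was left out, with log2 fold changes of 1.24 to 1.34 for Xbp1, 0.45 to 0.60 for Pdia4 and 0.59 to 0.83 for Trib3. The other calls were lost without some single libraries, while the log2 fold changes ran from 0.37 to 0.61 for Canx, 0.27 to 0.39 for Calr, 0.31 to 0.39 for Pdia6 and 0.30 to 0.38 for Derl1. Canx lost its call without any one of mpEC replicates 1, 2 and 3 and bmEC replicates 1 and 2 (adjusted p up to 0.156), Calr without mpEC replicates 1 and 3 or bmEC replicates 1 and 2 (up to 0.155), Pdia6 without mpEC replicate 3 or bmEC replicates 1 and 2 (up to 0.0625) and Derl1 without mpEC replicate 3 or bmEC replicate 2 (up to 0.0654). The called members of the Xbp1 and Atf6 arm numbered 2 without mpEC replicate 3 or without bmEC replicate 2, 3 without bmEC replicate 1, and 7 without bmEC replicate 3, where Ssr1 was called as well. Calr and Canx also lost their calls with no level filter, with quantile normalization and with no variance trend. Without mpEC replicate 1, Ssr1, Herpud1 and Asns were called.

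**Figure D2:**
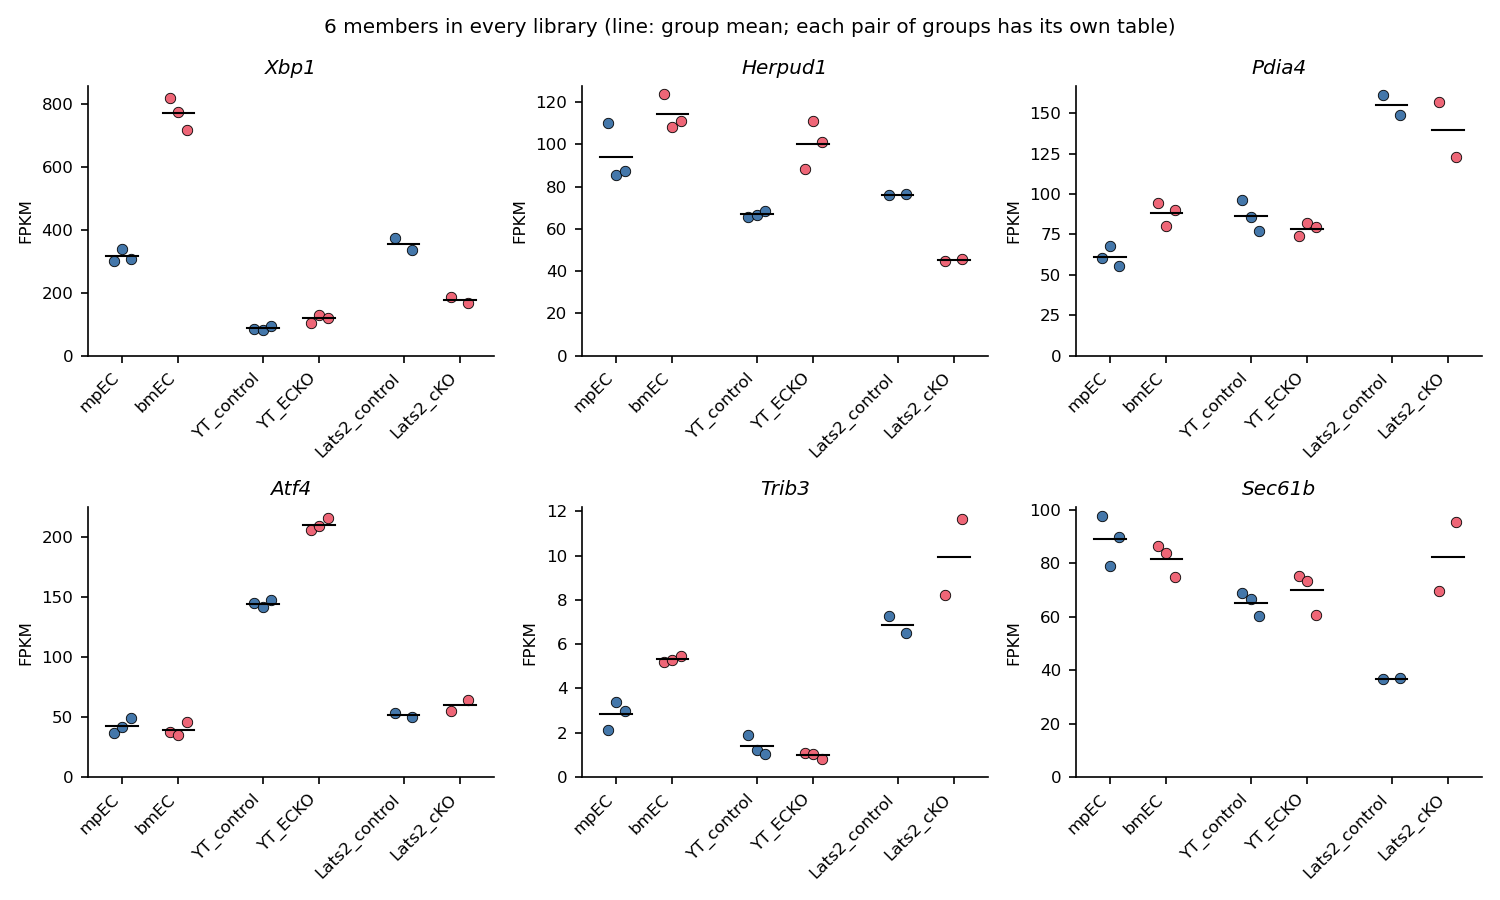
FPKM of 6 members in each of the 16 libraries, with points for libraries and a line at the group mean; reference groups are blue and the others red, and levels are comparable only within a pair of groups. Xbp1 lies higher in all bmEC than in all mpEC libraries and lower in both Lats2 cKO than in both control libraries, and Atf4 lies higher in all ECKO than in all Yap1/Taz control libraries.

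The second comparison asks what changes in bone ECs when Yap1 and Taz are lost. The targeted genes did not follow the labels. Wwtr1 was at 10.01, 9.88 and 10.3 FPKM in control replicates 1 to 3 and at 15.3, 19.6 and 19.5 in the libraries labelled ECKO (log2 fold change 0.78 ± 0.12 SE, adjusted p = 0.0272, limma), higher in all 3 of the libraries whose label names its deletion. The call was lost without control replicate 2 (adjusted p = 0.0752), control replicate 3 (0.0715), ECKO replicate 2 (0.180) or ECKO replicate 3 (0.144), while the direction stayed. Yap1 was at 1.07, 1.62 and 0.995 FPKM in control and 1.43, 1.03 and 0.989 in the libraries labelled ECKO, and the groups overlapped. The values cover the whole gene and do not show the exons between the loxP sites, so a deletion inside the gene was not tested. All directions below are between the libraries as labelled, and Wwtr1 goes against the labels. The paper reports fewer Yap1 and Wwtr1 transcripts in mutant bone ECs, measured separately, which is the direction of the labels. If the labels were exchanged every direction of this comparison would turn, which was not tested.

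Atf4 was the clearest member. It was at 144, 141 and 147 FPKM in control and 205, 208 and 215 in the libraries labelled ECKO, and the mean was 1.45 times that of control (log2 fold change 0.54 ± 0.088 SE, adjusted p = 0.0347, limma, n = 3 per group). The groups do not overlap, and within each group the libraries lie close together. Of the 8 tested members of the Atf4 arm, 1 was called higher and 0 lower, and of the 22 tested members of the Xbp1 and Atf6 arm 1 was called higher and 1 lower, where 0.883% of the 11320 tested genes were called higher, 0.424% lower and 1.31% in either direction. No member of the Atf4 arm was lower at an unadjusted p under 0.05 or by limma voom.

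The other members downstream of Atf4 did not pass the test. Asns was at 12.7, 13.7 and 15.9 FPKM in control and 19.3, 17.6 and 18.5 in the libraries labelled ECKO, and Sesn2 at 4.97, 7.02 and 6.09 and 8.75, 7.58 and 11.2. Both were higher in every library labelled ECKO, with adjusted p of 0.118 and 0.125 (limma). Ddit3 was at 6.76, 6.78 and 8.96 and 11.4, 7.99 and 11.1 FPKM, where control replicate 3 overlapped. Trib3 was at 1.88, 1.23 and 1.06 FPKM in control and 1.11, 1.05 and 0.828 in ECKO, and Chac1 at 0.643, 0.266 and 0.789 and 0.654, 1.25 and 0.860, from 5, 3 and 8 and 5, 12 and 8 reads. The serine enzymes lay lower on average, Phgdh at 112, 112 and 102 and 86.4, 96.6 and 108 FPKM and Psat1 at 24.8, 25.2 and 21.3 and 21.7, 21.3 and 19.7, with overlap in both. Eif2ak3, the kinase upstream, was at 10.4, 11.3 and 10.5 and 9.31, 10.2 and 9.44 FPKM (adjusted p = 0.520, limma).

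In the Xbp1 and Atf6 arm the called members went opposite ways. Herpud1 was at 65.7, 66.4 and 68.7 FPKM in control and 88.5, 111 and 101 in the libraries labelled ECKO (log2 fold change 0.57 ± 0.10 SE, adjusted p = 0.0399, limma). Sdf2l1, a cochaperone of the ER lumen, was at 53.4, 46.8 and 46.4 in control and 33.8, 35.8 and 33.2 in ECKO (log2 fold change -0.50 ± 0.096 SE, adjusted p = 0.0423, limma). Neither gene overlapped between the groups. Herpud1 holds both ERSE-II and CARE letters.

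Xbp1 was at 84.6, 80.5 and 94.5 FPKM in control and 104, 130.3 and 119 in the libraries labelled ECKO, higher in each of them, and missed the threshold (adjusted p = 0.0810, limma), while voom on recovered reads called it (adjusted p = 0.0448, with 0.0421 to 0.322 over all alternatives). Ern1 was at 6.99, 8.60 and 7.85 and 11.3, 8.69 and 10.3 FPKM (adjusted p = 0.211, limma). The isomerase Pdia3 lay the other way, at 73.8, 86.7 and 69.3 FPKM in control and 53.4, 55.3 and 56.7 in ECKO (adjusted p = 0.0654, limma), and voom called it lower (adjusted p = 0.0332, with 0.0332 to 0.252 over all alternatives). Atf6b was at 14.5, 16.6 and 14.7 and 8.62, 10.4 and 13.7 FPKM, lower in every library labelled ECKO (adjusted p = 0.140, limma). Ssr1 and Pdia6 were also lower in all 3 without passing. The abundant folding genes barely differed, with Calr at 485, 424 and 391 and 383, 424 and 408 FPKM, P4hb at 206, 197 and 184 and 201, 191 and 188, and log2 fold changes of -0.17 for Canx, -0.13 for Pdia4 and 0.046 for Creld2. Of the degradation genes that were not called, Derl2 was at 4.61, 3.54 and 4.62 and 3.88, 2.66 and 2.49 FPKM and Derl1 at 45.02, 38.1 and 36.1 and 45.6, 49.1 and 40.5.

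The median log2 fold change was -0.060 over the Xbp1 and Atf6 arm and 0.12 over the Atf4 arm, beside -0.00472 over all tested genes. In single libraries, the median difference of the Atf4 arm from the control mean was -0.019, 0.0072 and -0.0021 in control and 0.15, 0.014 and 0.18 in the libraries labelled ECKO on the log2 scale, and that of the Xbp1 and Atf6 arm 0.077, 0.0059 and -0.065 and -0.090, -0.031 and -0.089. The median of the Atf4 arm was above all controls in the 3 libraries labelled ECKO, ECKO replicate 2 by the smallest margin, while 4 members had positive and 4 negative log2 fold changes. The controls enter the mean that they are measured from, which holds them near it. In each control and each ECKO library, 4 of the 8 tested members of the Atf4 arm lay above this mean. The groups overlapped for the Xbp1 and Atf6 arm, whose median log2 fold change was -0.0096 without control replicate 1. With a minimum mean of 5 FPKM and with no filter the median of the Atf4 arm was 0.37 and 0.30.

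Of the other genes of the pathway, 0 of 30 tested Atf4 targets, 0 of 18 folding, 0 of 14 degradation, 0 of 24 translocation and 0 of 15 regulator genes were called (limma), and 3 Atf4 targets were higher and 0 lower at an unadjusted p under 0.05. Of the 30 targets 8 had positive and 22 negative log2 fold changes, with a median of -0.077. By voom, 2 Atf4 targets and 1 folding gene were called higher and 1 translocation gene lower. At an unadjusted p under 0.05 the other lists held 1 higher and 2 lower folding genes, 2 and 1 degradation genes, 0 and 2 translocation genes, and 0 and 1 regulators. Atf3, a stress factor under Atf4, was at 54.8, 51.6 and 36.2 FPKM in control and 60.9, 106 and 102 in the libraries labelled ECKO (adjusted p = 0.0761, limma). Hspa5 was at 237, 225 and 209 and 229, 271 and 272, Hsp90b1 at 77.7, 90.9 and 82.9 and 74.6, 74.7 and 69.8, and Ppp1r15a at 60.5, 73.0 and 84.1 and 80.5, 73.1 and 84.0.

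The plasma and B cell list (10 genes in the table, 2 of 8 tested called lower) summed to 291, 278 and 243 FPKM in control and 197, 197 and 201 in the libraries labelled ECKO, with Cd79b the most abundant at 139, 124 and 118 and 100.1, 95.9 and 93.7. Its Mzb1, a partner of ER chaperones in plasma cells, was at 22.6, 17.8 and 15.4 and 8.28, 10.4 and 10.7 FPKM and was called lower, and Tnfrsf17 was at 0 in ECKO replicates 2 and 3. The osteoblast list, headed by Col1a1, summed to 44.5, 42.2 and 61.8 and 31.4, 13.2 and 15.3 FPKM with 3 of 7 tested genes called lower. The endothelial list summed to 602, 620.0 and 599 and 694, 776 and 803, with 0 of 10 called by limma, 8 higher at an unadjusted p under 0.05 and 3 higher by voom. Macrophage genes were abundant in both groups, at 959, 931 and 1282 and 1026, 959 and 941 FPKM, headed by C1qa, with 0 of 6 called by limma, 0 higher and 1 lower at an unadjusted p under 0.05 and 0 and 0 by voom. The neutrophil list summed to 2618, 2290.1 and 2926 and 4105, 1953 and 1843 FPKM, highest in ECKO replicate 1, with 0 of 9 called by limma, 0 higher and 0 lower at an unadjusted p under 0.05 and 0 and 0 by voom. The early response list of 8 genes, headed by Junb at 759, 742 and 656 and 879, 1213 and 1207, summed to 1954, 1922 and 1995 in control and 2004, 2408 and 2451 in the libraries labelled ECKO, higher in each of them, with 0 of 8 called by limma, 3 higher and 1 lower at an unadjusted p under 0.05 and 1 and 1 by voom. The megakaryocyte list, headed by Pf4, summed to 155, 147 and 166 and 161, 184 and 183 FPKM, with 1 of 5 called higher and 0 lower by limma, 1 higher and 0 lower at an unadjusted p under 0.05 and 1 and 0 by voom, and its Ppbp was the called gene, at 1.95, 2.15 and 2.54 and 6.15, 7.13 and 7.01. The erythroid list, headed by Hbb-bs, summed to 5409, 4643 and 5566 and 6672, 4447 and 5032, with 0 of 7 called by limma, 0 higher and 0 lower at an unadjusted p under 0.05 and 0 and 0 by voom, and the stroma list, headed by Pdgfrb, to 16.2, 18.5 and 18.4 and 18.7, 13.9 and 13.6, with 0 of 4 called by limma, 0 higher and 1 lower at an unadjusted p under 0.05 and 0 and 0 by voom. The part of these lists in the results on members was not tested.

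These calls were lost without some single libraries. Without ECKO replicate 2, ECKO replicate 3, control replicate 2 or control replicate 3, none of the 3 members was called, and the genes called among all tested were 0 higher and 1 lower, 0 higher and 1 lower, 11 higher and 9 lower, and 8 higher and 6 lower. Without control replicate 1 Atf4 alone was called, and without ECKO replicate 1 Atf4, Herpud1 and Xbp1 were. The log2 fold change was 0.52 to 0.55 for Atf4 (adjusted p up to 0.184), 0.49 to 0.66 for Herpud1 (up to 0.209) and -0.53 to -0.43 for Sdf2l1 (up to 0.201). All 3 calls were also lost with no level filter, with no variance trend and with a replicate block.

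The third comparison asks what changes when Lats2, a kinase that restrains Yap1 and Taz, is lost. Lats2 itself was at 23.4 and 24.0 FPKM in the 2 control libraries and 19.2 and 19.2 in the 2 cKO libraries (log2 fold change -0.29, adjusted p = 0.125, limma), lower in both but not past the threshold. As in the Yap1/Taz libraries, the value covers the whole gene and not the deleted part. Lats2 shares 42.4% of its exon bases with Gm49361 on the same strand, so its level is less certain.

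Xbp1 was lower in the cKO libraries. It was at 373 and 334 FPKM in control replicates 1 and 2 and 186 and 166 in cKO replicates 1 and 2, and the mean was 0.499 times that of control (log2 fold change -0.999 ± 0.13 SE, adjusted p = 0.0129, limma, n = 2 per group). Herpud1 was at 76.0 and 76.4 in control and 44.7 and 45.8 in cKO (log2 fold change -0.74 ± 0.11 SE, adjusted p = 0.0146, limma). Sec61b, a subunit of the import channel, was the arm's called member in the other direction, at 36.5 and 37.0 in control and 69.4 and 95.5 in cKO (log2 fold change 1.13 ± 0.18 SE, adjusted p = 0.0165, limma). No group of these 3 genes overlapped the other. With 2 libraries per group this was common, as 6 of the arm's 21 tested members lay higher and 9 lower without overlap. The share of all tested genes without overlap is not given here. The most abundant gene of the table, Gm23935, was at 6093 and 7629 FPKM in control and 15846 and 26667 in cKO, and all genes summed to 342284 and 341172 and 382473 and 444999, so the make-up of the libraries differed with the group. With median-centred libraries and with quantile normalization all 5 members called in this comparison kept their calls. Of the 21 tested members of the Xbp1 and Atf6 arm, 1 was called higher and 2 lower, where 11.8% of the 12453 tested genes were called higher, 9.98% lower and 21.8% in either direction. Called members made up 14.3% of the arm, under the share of all genes. Of the 9 members of the Atf4 arm, 2 were called lower and 0 higher, with 1 higher at an unadjusted p under 0.05, Chac1, and 0 higher by voom. With a replicate block, which here goes with sex, Chac1 was called higher. Sec61b shares 17.4% of its 50-base words with transcripts of other genes, chiefly the pseudogene Gm10320, so its level is less certain.

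The ligase of the degradation complex and its scaffold lay lower too. Sel1l was at 27.7 and 28.1 FPKM in control and 21.7 and 19.1 in cKO, and Syvn1 at 16.0 and 18.3 and 10.5 and 12.8. Both missed the threshold (adjusted p = 0.0623 and 0.0657, limma) and were called lower by voom. Over all alternatives the adjusted p was 0.0391 to 0.292 for Sel1l and 0.0468 to 0.330 for Syvn1. Edem1 and Edem2 lay higher, at 14.6 and 16.6 and 19.3 and 18.0 FPKM and at 15.8 and 20.3 and 23.9 and 23.7, without a call. Derl1 was at 51.8 and 55.6 in control and 45.7 and 38.8 in cKO, and Derl2 at 9.56 and 9.40 and 7.67 and 8.01. Derl3 rested on 10 and 3 and 3 and 1 reads.

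The folding members of the list did not pass in either direction. Pdia3 was at 422 and 406 FPKM in control and 436 and 375 in cKO, and P4hb, which also forms part of the collagen-modifying enzyme, was at 382 and 361 and 448 and 424. Calr was at 400.2 and 425 and 358 and 343 and Canx at 178 and 144 and 136 and 114, lower in both cKO libraries. Pdia4, Pdia6, Creld2 and Sdf2l1 overlapped between the groups, and Manf was at 38.4 and 38.5 and 47.0 and 46.3 FPKM (adjusted p = 0.132, limma). The sensor Atf6 was at 4.25 and 4.57 and 5.86 and 5.35 FPKM, Atf6b at 39.4 and 40.1 and 32.6 and 34.5, and Ern1 at 0.9099 and 1.09 and 0.778 and 0.688, the last under the level filter.

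In the Atf4 arm, the called members were the kinase at its top and an enzyme at its end. Eif2ak3 was at 11.8 and 11.8 FPKM in control and 7.96 and 5.88 in cKO (log2 fold change -0.70 ± 0.17 SE, adjusted p = 0.0428, limma). Phgdh, the first enzyme of serine synthesis, was at 4.45 and 4.80 in control and 1.49 and 1.45 in cKO (log2 fold change -1.18 ± 0.17 SE, adjusted p = 0.0148, limma). Phgdh shares 47.8% of its 50-base words with transcripts of other genes, chiefly the pseudogene Gm7901, and Eif2ak3 shares 8.05% of its exon bases with a gene on the opposite strand, and how the counting treated such reads is not given in the sources used here. Atf4 was at 53.0 and 50.2 and 55.3 and 64.1 FPKM (adjusted p = 0.299, limma), and Trib3 at 7.28 and 6.49 and 8.23 and 11.6 (adjusted p = 0.152, limma). Chac1 was at 0 and 0.616 FPKM in control and 1.29 and 4.17 in cKO, from 0 and 6 and 8 and 34 reads, so cKO replicate 2 holds most of them. Its mean was 0.308 FPKM in control and 2.73 in cKO, so it passed the level filter through the cKO libraries. Ddit3, Asns, Sesn2 and Psat1 overlapped between the groups.

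The median log2 fold change was -0.064 over the Xbp1 and Atf6 arm and 0.15 over the Atf4 arm, beside -0.00325 over all tested genes. The Atf4 arm median includes Chac1, which passed the level filter through the cKO libraries, and the median without Chac1 is not given here. Without control replicate 2 the median of the Atf4 arm was -0.033, and that of the Xbp1 and Atf6 arm was 0.019 without cKO replicate 2, -0.19 without control replicate 2 and -0.23 with quantile normalization.

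Other genes of the pathway were called in both directions. Of 24 tested translocation genes 6 were called higher and 1 lower, of 18 folding genes 4 higher and 1 lower, of 15 regulators 3 higher and 2 lower, of 14 degradation genes 1 higher and 0 lower (2 lower at an unadjusted p under 0.05, 0 by voom), and of 28 Atf4 targets 7 higher and 2 lower (limma). Sec61g, the small partner of Sec61b in the channel, was at 6.61 and 6.21 FPKM in control and 14.6 and 23.6 in cKO, and Ost4, a subunit of the glycan-adding enzyme, at 73.9 and 66.5 and 117 and 159. The isomerase Pdia5 was at 13.7 and 13.4 and 35.0 and 42.9, and the lectin Erlec1 at 6.17 and 2.63 and 12.2 and 10.8. Among Atf4 targets, Atf3 was at 4.15 and 7.96 in control and 14.7 and 14.9 in cKO and the proline enzyme Aldh18a1 at 9.87 and 8.55 and 19.3 and 18.7, while the factor Cebpb was lower, at 79.5 and 86.4 in control and 44.4 and 33.9 in cKO. Creb3l2, an Atf6-like factor of secretory cells, was at 7.31 and 8.47 and 14.01 and 23.1. These 8 genes passed at adjusted p of 0.00910 to 0.0490 (limma). Ost4 shares 53.2% and Cebpb 20.7% of exon bases with a gene on the opposite strand, so their levels are less certain. Hspa5 was at 660.3 and 601 and 629.8 and 537 FPKM, Hsp90b1 at 311 and 248 and 280.4 and 238, and Ppp1r15a at 33.5 and 49.9 and 29.0 and 29.1.

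Sums of plasma and B cell, neutrophil and erythroid genes were lower in the same libraries as Xbp1. The plasma and B cell list of 12 genes summed to 492 and 358 FPKM in control and 126 and 117 in cKO, with Igkc at 215 and 126 and 46.8 and 60.9 and 5 of 8 tested genes called lower. Mzb1 was at 9.77 and 7.43 and 4.39 and 0.888 FPKM and Tnfrsf17 at 0 in all 4 libraries, while Prdm1, a factor of plasma cells that other cells express too, was called higher. The neutrophil list of 9 genes summed to 2883 and 1928 and 847 and 703 with 6 called lower (8 lower at an unadjusted p under 0.05 and 7 by voom) and the erythroid list to 3669.6 and 2436 and 1395 and 243 with 1 of 7 called lower (6 lower at an unadjusted p under 0.05 and 5 by voom). The macrophage list summed to 170.0 and 149 and 66.1 and 28.5, with Mrc1 at 151 and 137 and 25.2 and 12.4 the 1 gene of 5 tested called lower. Without Mrc1 the list summed to 18.7 and 12.1 and 40.8 and 16.1, with C1qa at 1.74 and 0.647 and 7.39 and 3.09 and C1qb at 4.99 and 1.08 and 11.4 and 6.65. The megakaryocyte list summed to 29.7 and 110.1 in control and 12.1 and 9.45 in cKO with 1 of 5 called lower (3 lower at an unadjusted p under 0.05 and 3 by voom). The stroma list, headed by Cxcl12, summed to 32.0 and 40.0 and 62.9 and 74.9, with 3 of 5 tested genes called higher (Acta2, Col3a1 and Cxcl12). The osteoblast list, headed by Spp1 on average, summed to 84.8 and 13.8 and 43.2 and 68.6, with 1 of 6 tested genes called higher, Spp1 at 6.83 and 3.57 and 25.9 and 53.9. The early response list, headed by Junb, summed to 694 and 884 and 926 and 827, with 0 of 8 called by limma, 1 higher and 0 lower at an unadjusted p under 0.05 and 0 and 0 by voom. The endothelial list summed to 2584 and 2772 and 2673 and 2666, with 1 of 10 called higher, Pecam1 at 188 and 207 and 346 and 369, and 2 lower, Kdr at 324 and 338 and 196 and 149.7 and Tek at 215 and 213 and 107 and 65.2. Kdr and Tek were also among the genes called higher in bmECs. The part of these genes in the lower Xbp1 and Herpud1 levels was not tested.

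**Figure D3:**
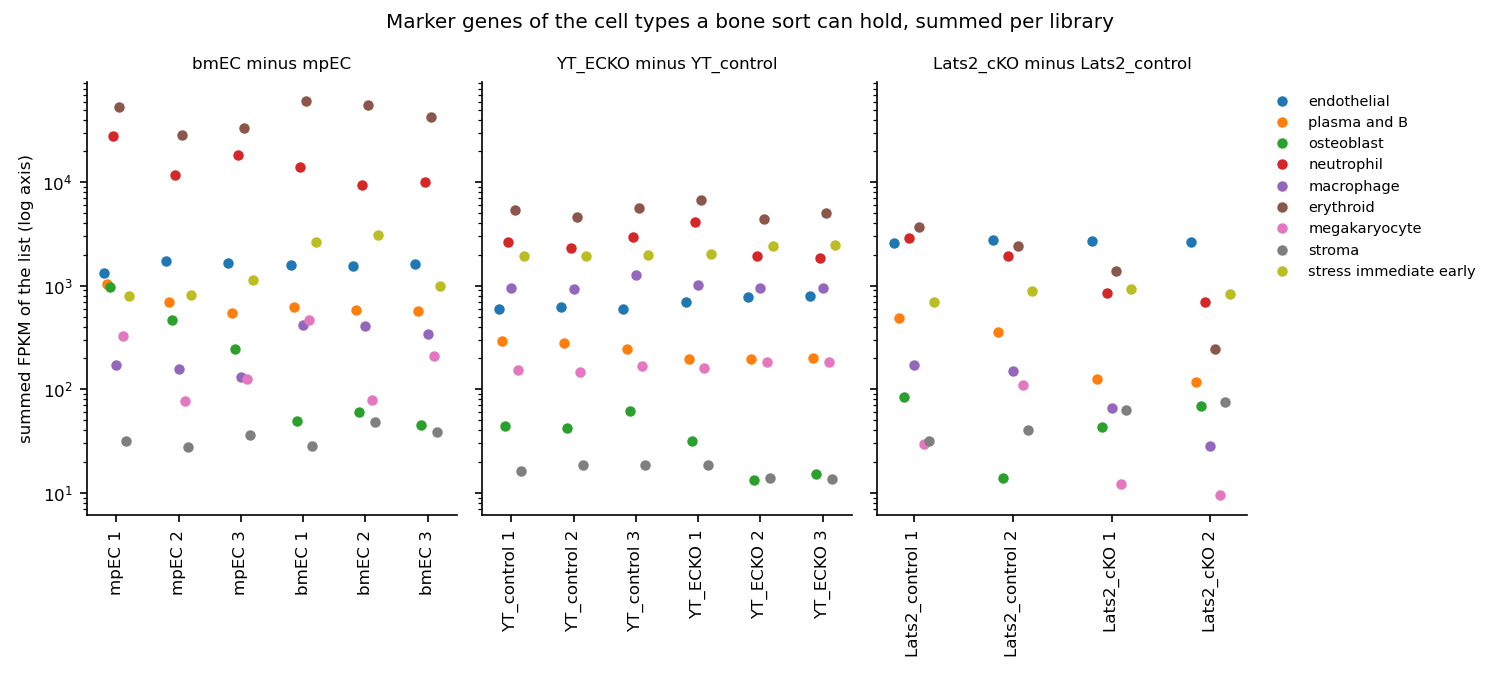
Summed FPKM of each marker list per library, on a log axis, with a colour per list. The plasma and B cell, neutrophil and erythroid sums lie lower in both Lats2 cKO libraries than in both controls, and the osteoblast sum lies lower in all bmEC than in all mpEC libraries.

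With 2 libraries per group, calls were lost without either control. Without control replicate 1 or control replicate 2, 0 of all tested genes were called, so none of the 5 members was. Without cKO replicate 1 all 5 kept their calls and Chac1 was called as well, and without cKO replicate 2 Xbp1, Herpud1 and Sec61b kept theirs. The log2 fold change was -1.08 to -0.92 for Xbp1 (adjusted p up to 0.151), 0.90 to 1.35 for Sec61b (up to 0.152) and -1.23 to -1.14 for Phgdh (up to 0.145). Eif2ak3 also lost its call with no level filter and with no variance trend.

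**Figure D4:**
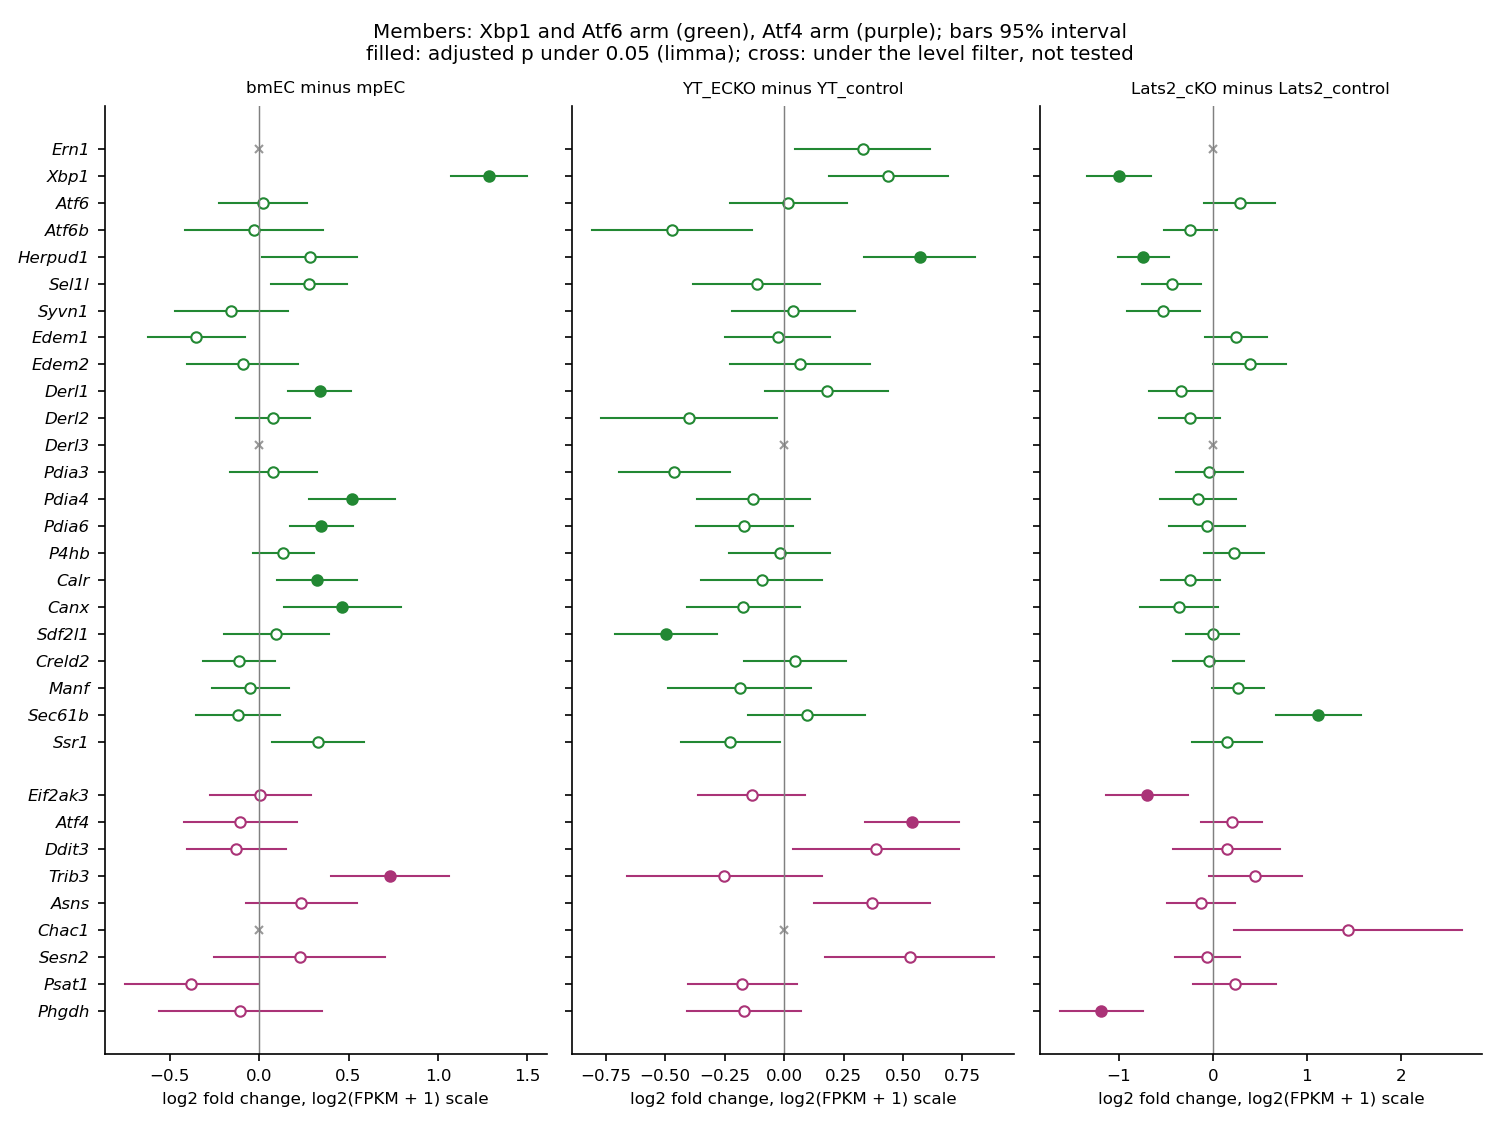
Log2 fold change of each member in the 3 comparisons, with 95% intervals from limma; filled points passed an adjusted p of 0.05, crosses mark members under the level filter, and the Xbp1 and Atf6 arm stands above the Atf4 arm. Xbp1 lies at 1.29 in bmECs, 0.44 in the libraries labelled ECKO and -0.999 in Lats2 cKO.

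Side by side, both arms held calls in each comparison, and differences between comparisons were not tested. The 3 comparisons share no library. Over all of them, 19 of the 32 members were called in none, 11 in 1 and 2 in 2, and 0 in all 3. The 2 members were Xbp1, higher in bmECs and lower in Lats2 cKO, and Herpud1, higher in the libraries labelled ECKO and lower in Lats2 cKO. In the Xbp1 and Atf6 arm 9 of 23 members were called at least once, 5 of them, Derl1, Pdia4, Pdia6, Calr and Canx, in bmECs alone. In the Atf4 arm 4 of 9 were called, each in 1 comparison: Trib3, Atf4, Eif2ak3 and Phgdh. Among the 9069 genes tested in all 3 comparisons, 27.7% were called in 1 comparison, 9.43% in 2 and 0.276% in 3. Of the members tested in all 3, 7 of 21 in the Xbp1 and Atf6 arm (33.3%) were called in 1 and 2 (9.52%) in 2, and in the Atf4 arm 4 of 8 in 1. These shares were not tested against each other. At an unadjusted p under 0.05, 1 higher and 1 lower members of the Atf4 arm were found in bmECs, 4 and 0 in the libraries labelled ECKO and 1 and 2 in Lats2 cKO, beside 9 and 1, 3 and 5, and 1 and 5 in the Xbp1 and Atf6 arm. Of all tested genes 19.2% were higher and 16.9% lower at this threshold in bmECs, 9.79% and 8.08% in the libraries labelled ECKO and 20.1% and 18.5% in Lats2 cKO.

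**Figure D5:**
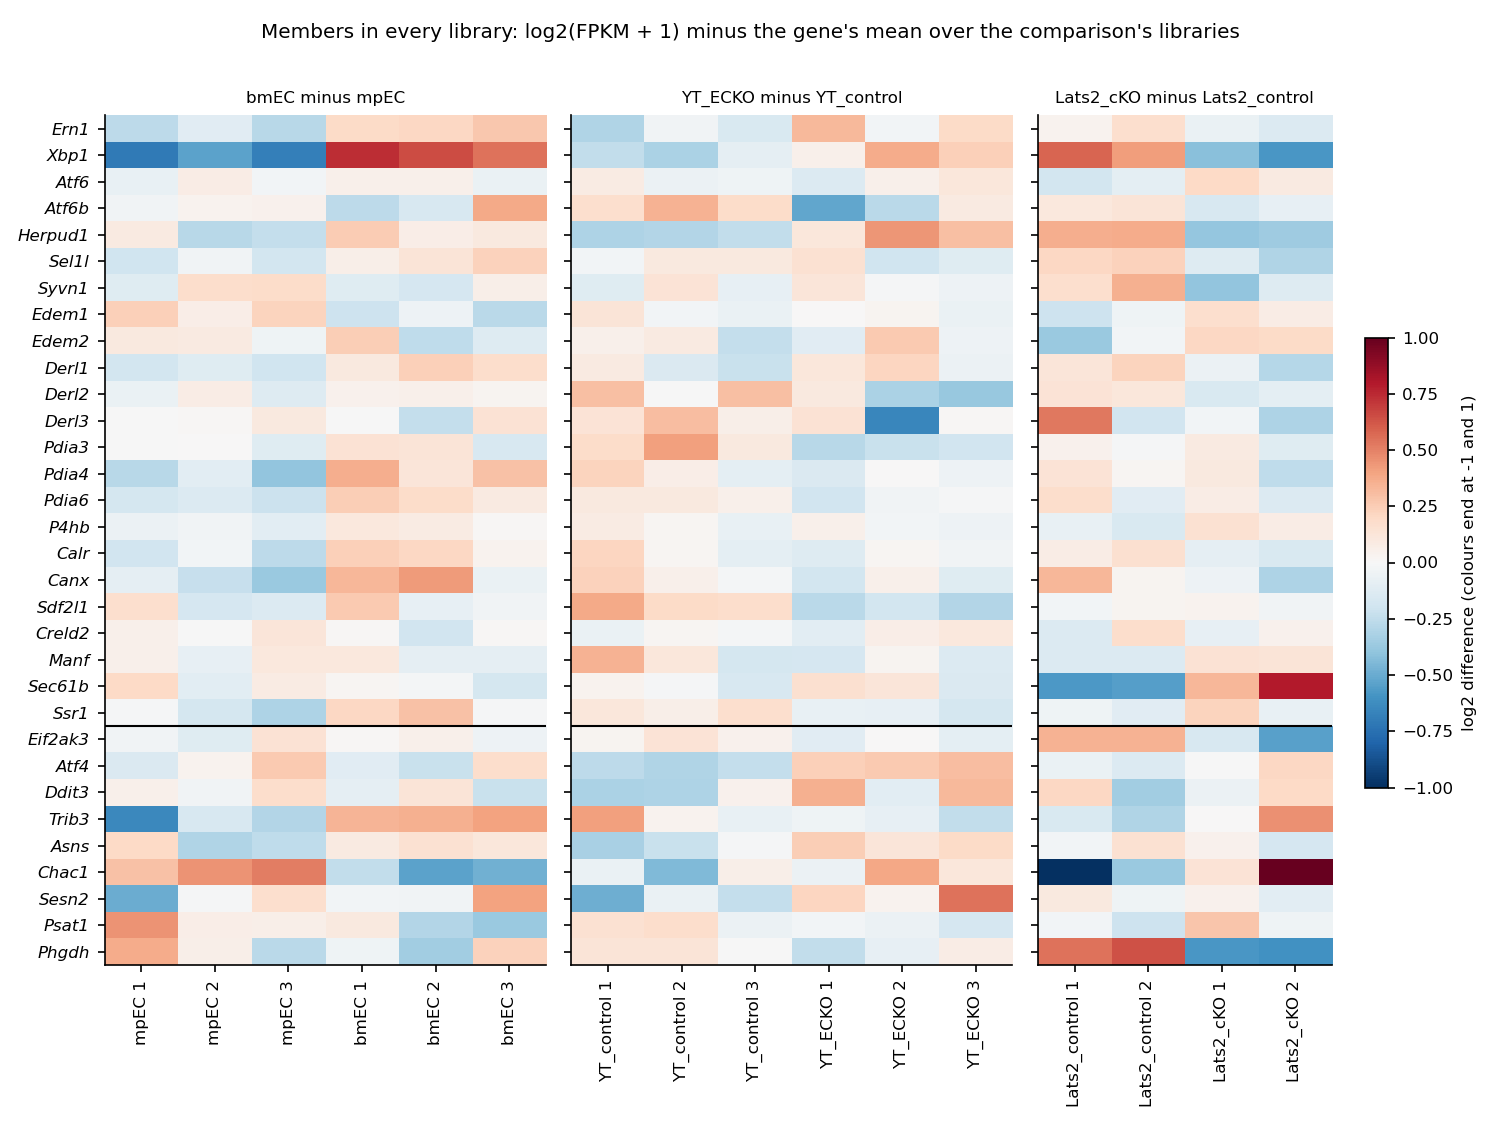
Log2(FPKM + 1) of each member in each library, as the difference from that gene's mean over the libraries of its comparison; red is higher and blue lower, colours end at -1 and 1, and a black line separates the Xbp1 and Atf6 arm (top) from the Atf4 arm. Xbp1 separates bmEC from mpEC libraries, and Atf4 the libraries labelled ECKO from control.

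FPKM is per length, so levels can be read between genes of a table. The median over the tested members of the Xbp1 and Atf6 arm was 62.8 FPKM in the mpEC and bmEC table, 35.5 in the Yap1/Taz table and 59.6 in the Lats2 table, and over the Atf4 arm 8.86, 13.2 and 9.35. Over all tested genes it was 7.13, 9.02 and 8.45.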

How the data were processed

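The authors deposited FPKM values per gene, made from reads mapped to GRCm38 and counted per gene with HTSeq 0.6.1, and the submitters' processing notes also name TopHat and DESeq2. The Yap1/Taz files name no unit, and FPKM was taken from their values. Whether counting used the strand is not given in the sources used here. Libraries were prepared from stranded total RNA. Reads were recovered as FPKM times annotated gene length, scaled per library, and 62.5 to 70.0% of recovered values of at most 20 reads lay within 0.02 of a whole number, where chance gives 4%.

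Each comparison was fitted within its own table with limma 3.58.1 in R 4.3.3 on log2(FPKM + 1), with a variance trend and two-sided p-values, over genes whose mean reached 1 FPKM. The fit was tested on simulated data with 200 genes changed by at least 1 log2 unit. Most called members changed by less, so this test does not cover them, and its outcome is not given here. Tables and plots were made with Python 3.11.15, pandas 2.3.3, numpy 2.4.6 and matplotlib 3.10.9. Alternatives were a pseudocount of 0.1, a minimum mean of 5 FPKM, no filter, median-centred libraries, quantile normalization, no variance trend, a replicate block, an adjusted p under 0.01 with an absolute log2 fold change over 0.5, and leaving out each library. Limma voom on recovered reads, for genes with at least 10 reads, was added after seeing the data.

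All members found were named. Of the other pathway genes, at most 8 per comparison were named, by the size of the log2 fold change among called genes that averaged 5 FPKM or more, and Hspa5, Hsp90b1, Ppp1r15a and Atf3 in any case. Edem1 and Psat1 as single genes under a count, and the pathway genes with a promoter match, were named after their values were seen. The members and lists were chosen with earlier results of these data known. Promoter sequences came from RefSeq (GRCm38.p6).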

Additional observations from a re-analysis of the deposited data

How the results depend on the processing

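With a pseudocount of 0.1 and with median-centred libraries, the 24 results, namely the medians of the arms and the counts of called genes in the arms and among all tested genes, stayed within 1.5 times for counts and within the spread between libraries for medians. The genes called higher in ECKO numbered 88 with the pseudocount and 101 with centring. The cause of the shifts below was not tested.

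At an adjusted p under 0.01 with an absolute log2 fold change over 0.5, 2 members of the Xbp1 and Atf6 arm were called higher in bmECs, with 744 higher and 591 lower among all tested. In the libraries labelled ECKO the counts were 0 and 0 for that arm, 0 higher for the Atf4 arm, and 0 higher and 1 lower in all, and in Lats2 cKO 0 and 0, 0 lower, and 106 and 151. With a minimum mean of 5 FPKM, which tests fewer genes, the median of the Xbp1 and Atf6 arm in bmECs was 0.21 and 0 members of the Atf4 arm were higher, the Atf4 arm median in ECKO was 0.37, and 1 member of the Atf4 arm was lower in Lats2 cKO. With no filter, 1 member of the Atf4 arm was lower in bmECs. In ECKO 0 and 0 members of the Xbp1 and Atf6 arm and 0 higher of the Atf4 arm were called, with an Atf4 arm median of 0.30 and 0 higher and 1 lower in all. In Lats2 cKO 1 member of the Atf4 arm was lower, with 720 and 669 in all. Without a variance trend, ECKO gave 0 and 0, 0 higher, and 10 and 7 in all, and Lats2 cKO 1 lower member of the Atf4 arm. With quantile normalization the Lats2 medians were -0.23 for the Xbp1 and Atf6 arm and 0.091 for the Atf4 arm. With limma voom, 1 member of the Xbp1 and Atf6 arm was lower in bmECs, 2 were higher and 2 lower in ECKO with 271 and 115 in all, and 4 were lower in Lats2 cKO, with an Atf4 arm median of 0.20.

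Neither labels nor methods say whether same-numbered replicates share animals or litters. Correlations of their deviations were 0.307, 0.0876 and 0.102 for mpECs and bmECs, where mpEC replicate 2 correlated best with bmEC replicate 3, and -0.175, -0.123 and -0.156 for control and ECKO, so not every sample correlated best with its own number, and 0.0651 for Lats2. With a replicate block Herpud1 and Ssr1 were called higher as well in bmECs, and 1 member of the Atf4 arm, Psat1, was lower. ECKO gave 0 and 0, 0 higher, and 29 and 16 in all, so Atf4, Herpud1 and Sdf2l1 lost their calls. In Lats2 cKO 1 member of the Atf4 arm, Chac1, was higher.

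Leaving out each library gave, for bmECs, 2 to 7 members of the Xbp1 and Atf6 arm called higher and 0 to 0 lower, 1 to 2 of the Atf4 arm higher and 0 to 0 lower, medians of 0.051 to 0.16 and -0.076 to 0.041, and 1018 to 1353 higher and 799 to 1026 lower genes among all tested. The Atf4 arm median turned positive without mpEC replicate 3, at 0.041. For ECKO it gave 0 to 2 members of the Xbp1 and Atf6 arm called higher and 0 to 0 lower, 0 to 1 of the Atf4 arm higher and 0 to 0 lower, medians of -0.080 to -0.0096 and 0.097 to 0.15, and 0 to 215 higher and 1 to 78 lower genes among all tested. For Lats2 cKO it gave 0 to 1 members of the Xbp1 and Atf6 arm called higher and 0 to 2 lower, 0 to 1 of the Atf4 arm higher and 0 to 2 lower, medians of -0.19 to 0.019 and -0.033 to 0.24, and 0 to 1446 higher and 0 to 1255 lower genes among all tested, and the Atf4 arm median turned negative without control replicate 2, at -0.033. With 1 library left in a Lats2 group, that library is assumed to vary like the other group. Derl3 had few reads in each comparison.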
